A study of Mus musculus with 2 samples.

Results

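The COPI, COPII and ER to Golgi transport genes were 33 genes taken by symbol from the 32285 genes listed for each library, and each symbol matched 1 gene. They comprised 11 genes of the COPII coat and its assembly, 7 of the COPI coat, 3 KDEL receptors, 5 p24 proteins, 4 cargo receptors and 3 SNAREs. Splenic DC from naive animals of 2 genotypes were profiled by single-cell RNA sequencing: WT, with H2-Aa +/+, and cit, with H2-Aa cit/cit. Each genotype had 1 library, made from 3 pooled female mice that the labels give as 4 months old. Cells were enriched for CD11c from the spleen and then sorted as live CD45.2+ CD11c+ cells. The cit allele is an ENU-induced germline mutation of H2-Aa, the gene of an MHC class II alpha chain, and it is present in all cells of the animal and not in DC alone. Genotype, pool of mice and library cannot be told apart, so no test of the genotype was possible, and intervals in the text cover counting error only.

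Proteins made in the endoplasmic reticulum leave it in vesicles with a COPII coat. Vesicles with a COPI coat return escaped ER residents and used machinery from the Golgi. Coat subunits bend the membrane, p24 proteins and cargo receptors load the vesicles, KDEL receptors retrieve soluble chaperones, and SNAREs fuse the vesicle with its target. Cells that secrete much protein, such as plasma cells, are known for high levels of this machinery.

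The WT library held 7814 cells and 51020804 UMIs and the cit library 11525 cells and 72652201 UMIs, and 31 cell barcodes occurred in both. H2-Aa had 5409.7 CPM (UMIs per 1000000 UMIs) in WT and 66.2 CPM in cit cells, so the libraries were as labelled. Cells were placed in 8 classes by summed marker UMIs, with no transport gene among the markers, and 325 WT and 261 cit cells with markers of other cell types were set aside. The classes held 1513 WT and 3584 cit resting cDC2-like, 505 and 1435 intermediate cDC2-like, 462 and 1115 Ccr2+ cDC2-like, 268 and 522 proliferating DC-like, 2232 and 1461 mature DC-like, 693 and 734 cDC1-like and 115 and 121 pDC-like cells. A further 1701 WT and 2292 cit cells with a ribosomal protein share under 8% formed a class that was not named for a cell type. The median ribosomal protein share was 11.19% of UMIs in WT and 16.45% in cit cells and was higher in cit cells of all 8 classes.

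Most cargo receptors and p24 proteins were higher in cit than in WT cells of all classes but the pDC-like class. In the proliferating class, 12 transport genes were higher, and 2 after a cell filter given below. Most coat subunits were within 1.2-fold of WT in resting cDC2-like cells. A gene was counted as higher or lower where its summed UMIs in a class, divided by all UMIs of that class, differed between the libraries by at least 1.2-fold with a 95% interval that left out 1, among genes with a mean of at least 10 CPM. In cDC1-like cells, 28 of 32 transport genes that reached 10 CPM were higher in cit, against 19.8% of all 7881 genes at this level, and 0 were lower, against 21.9%. In resting cDC2-like cells, 14 of 32 were higher (8.65% of all genes) and 0 lower (8.45%). Kdelr3 was the only transport gene under 10 CPM in each of the 8 classes.

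As summed over all cells of a class, the share of members higher in cit was above that of all genes in each class but the pDC-like class. In intermediate cDC2-like cells, 20 of 32 were higher (9.7% of all genes) and 0 lower (9.56%), and in Ccr2+ cDC2-like cells 19 of 32 were higher (10.2%) and 0 lower (7.94%). Among low-ribosomal cells, 18 of 31 were higher (11.8%) and 1, Sec23a, was lower (8.52%). In proliferating DC-like cells, 12 of 32 were higher (8.66%) and 0 lower (9.6%). Leaving out cells with a Jchain, Mzb1, Derl3 or Tnfrsf17 UMI kept 266 of 268 WT and 464 of 522 cit cells. It left 2 higher and 1 lower, shares below the 9.9% and 9.5% of all genes. In cit proliferating cells Jchain, Mzb1 and Tnfrsf17 had 0 UMIs, so the cit cells left out were those with Derl3, also known as an ER stress gene. With Igkc in place of Derl3, an alternative chosen after seeing the data, 253 of 268 WT and 521 of 522 cit cells were kept. All 12 were still higher, but a filter that keeps nearly all cit cells could hardly change this, and nothing is read from it. Markers of cDC1 summed to 1281 CPM in WT and 741 CPM in cit proliferating cells, with all 10 detected in both, and their part in the result was not tested. In mature DC-like cells, 13 of 31 were higher, where 23.7% of all genes were, and 2 were lower, against 12.1%. In pDC-like cells, 1 of 32 was higher (6.33%) and 2 were lower (6.38%). The number of genes that can be counted as different depends on the UMIs of a class, which were fewest in pDC-like cells, with 1292630 in WT and 1106926 in cit.

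**Figure D1:**
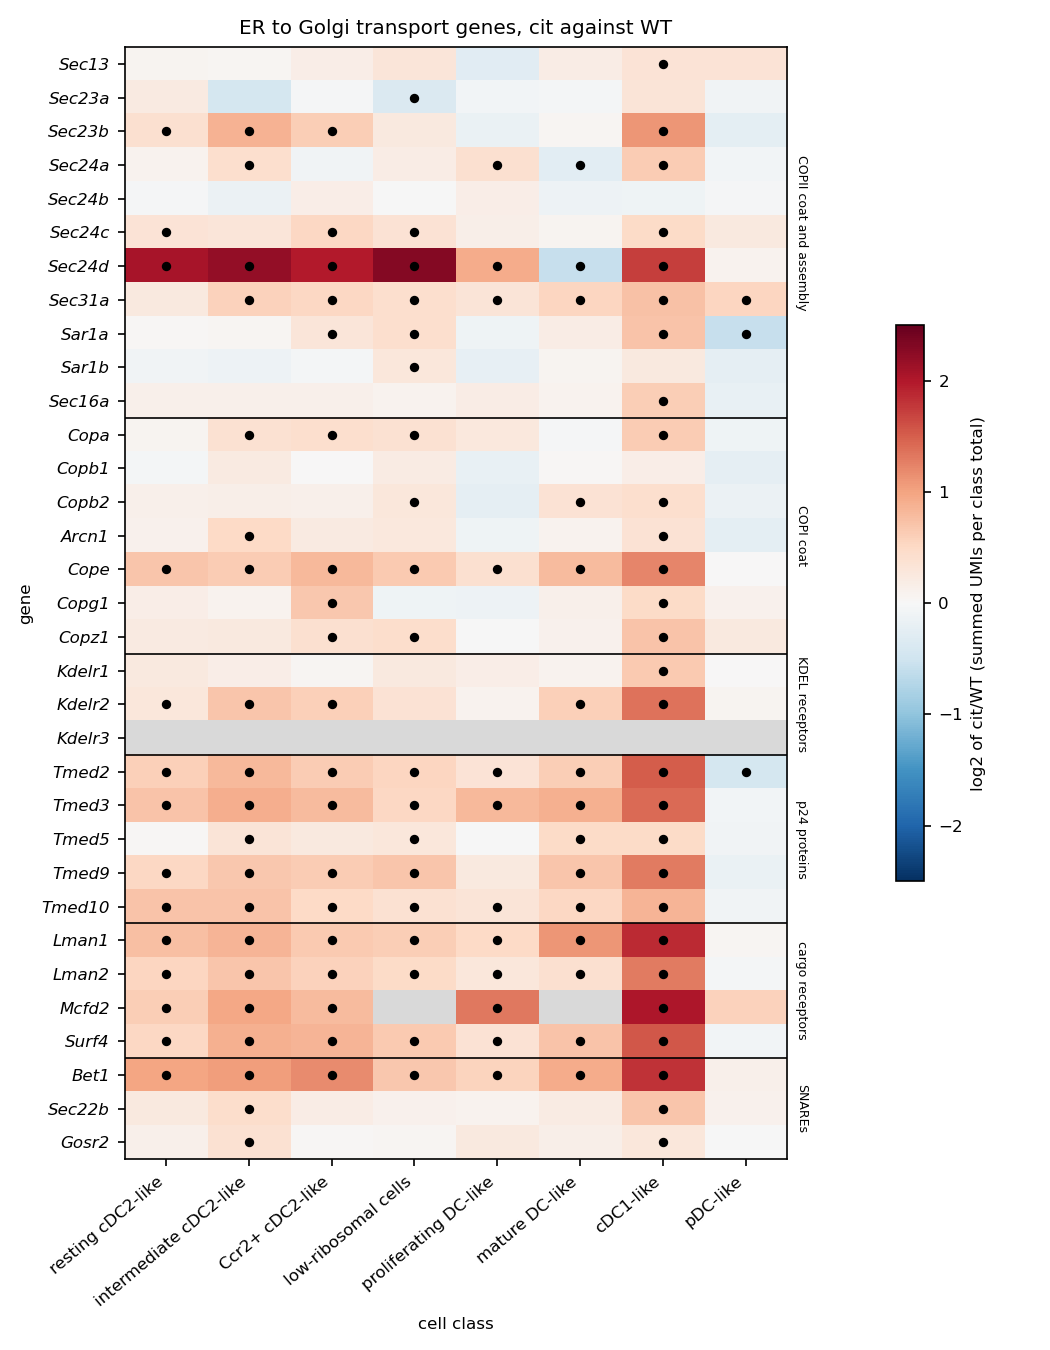
Log2 of cit/WT for each transport gene (rows, grouped by role) in each cell class (columns), with red for higher in cit, blue for lower, grey for genes under 10 CPM and a dot where the gene was counted as higher or lower. Cargo receptors and p24 proteins carry dots in nearly all columns but the pDC-like column, and the cDC1-like column has 28 dots. Sec24d has the darkest red in the cDC2-like and low-ribosomal columns, where its WT level was under 10 CPM.

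The median log2 ratio of cit to WT over the transport genes was 0.71 in cDC1-like cells, beside -0.02 for all genes at 10 CPM. It was 0.24 in resting, 0.43 in intermediate and 0.46 in Ccr2+ cDC2-like cells, where the median of all genes was between -0.01 and 0.02. In low-ribosomal cells it was 0.36 beside 0.02, in proliferating cells 0.17 beside -0.03 and in mature cells 0.19 beside 0.08. In pDC-like cells it was -0.06 beside 0.00. The ratio of a gene was larger in cDC1-like cells than in resting cDC2-like cells for 30 of 32 genes.

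The summed level of the 33 genes was 1934 CPM in WT and 3729 CPM in cit cDC1-like cells, which is 1.93-fold (log2 0.95, 95% interval 0.92 to 0.98). Resting cDC2-like cells held 1717 CPM in WT and 2150.4 CPM in cit (log2 0.33, 0.30 to 0.35) and Ccr2+ cDC2-like cells 1854 and 2541 CPM (log2 0.45, 0.42 to 0.49). In WT, pDC-like cells had the highest sum of the 8 classes, at 2694 CPM, and mature DC-like cells the lowest, at 1290 CPM. In cit, pDC-like cells had 2562 CPM (log2 ratio -0.07, -0.14 to -0.00), and cDC1-like cells lay above them. Of the 32 genes other than Kdelr3, 17 were highest in the pDC-like class in WT, whereas 22 were highest in the cDC1-like class in cit. Only 3 of these 32 had a higher level in WT cDC1-like than in WT pDC-like cells, and 28 had a higher level in cit cDC1-like than in cit pDC-like cells. Plasma cell markers summed to 924 CPM in WT and 673 CPM in cit pDC-like cells, above all other classes, with 7 of 10 detected in each. The pDC-like class was gated first, so cells with plasma cell markers were not set aside from it. Markers of pDC summed to 11520 CPM in WT and 8977 CPM in cit, and the part of either difference was not tested.

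**Figure D2:**
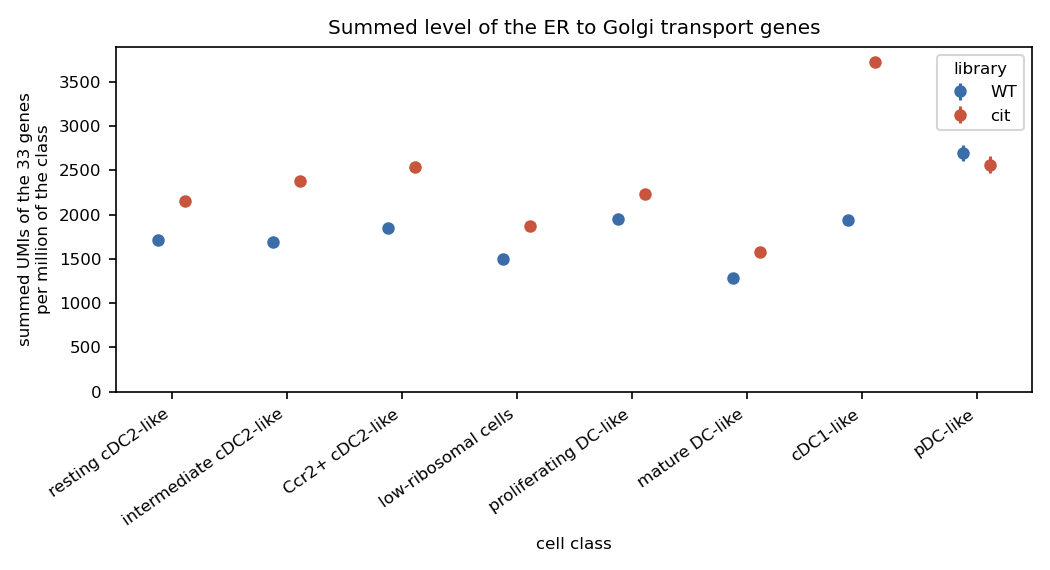
Summed UMIs of the 33 transport genes as CPM of the class (vertical axis, from 0) in WT (blue) and cit (red) cells of 8 classes, with exact Poisson 95% intervals that are mostly smaller than the points. The cit point lies above the WT point in all classes but the pDC-like class, and the widest gap, from 1934 to 3729 CPM, is that of cDC1-like cells.

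Median depth per cell was 5492 UMIs in the WT and 5633 UMIs in the cit library, but 7065 UMIs in WT and 13514 UMIs in cit cDC1-like cells. In resting cDC2-like cells it was 7432 UMIs in WT and 6368.5 UMIs in cit. When each cell was thinned to 3000 UMIs, leaving out 132 WT and 102 cit cells below this depth, cDC1-like cells held a median of 5 transport gene UMIs in WT (quartiles 3 and 7) and 11 in cit (quartiles 8 and 14). Unthinned, the medians were 16.9 and 36.1 UMIs per 10000. The upper quartile of WT cells lay below the lower quartile of cit cells. In resting cDC2-like cells the thinned medians were 5 (quartiles 3 and 7; 205 cells left out) and 6 (quartiles 4 and 8; 374 left out), and the quartiles overlapped. Their unthinned medians were 16.5 and 19.6 UMIs per 10000. Markers of mature DC summed to 1225 CPM in WT and 498 CPM in cit cDC1-like cells, with all 14 markers detected in both. An alternative chosen after seeing the data left out cDC1-like cells at or over a cut of mature markers set below the mature gate. It kept 617 of 693 WT and 717 of 734 cit cells, and the same 28 transport genes were higher in cit.

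By role, cargo receptors had the largest summed ratio in resting and in cDC1-like cells. These proteins bind folded secretory cargo in the ER membrane and concentrate it in COPII vesicles. All 4 were higher in cit cells of the 3 cDC2-like classes, the proliferating class and the cDC1-like class. Between 8.65% and 19.8% of all genes were higher in these classes. Of the 12 transport genes higher in the proliferating class, 2 stayed so without cells holding a Jchain, Mzb1, Derl3 or Tnfrsf17 UMI. Mcfd2 had 8.39 CPM in WT and 21.0 CPM in cit proliferating cells, so it reached the minimum mean through its cit level. Lman1, the mannose-binding lectin ERGIC-53, had 26.6 CPM in WT and 45.2 CPM in cit resting cells and 35.2 and 129 CPM in cDC1-like cells (log2 ratios 0.76 and 1.87). Mcfd2, its soluble partner in the transport of coagulation factors, had the largest ratio among members at 10 CPM in cDC1-like cells, from 13.5 to 55.2 CPM (log2 2.03, 1.71 to 2.37). In resting cells Mcfd2 had 12.9 CPM in WT and 19.7 CPM in cit. Lman2, a lectin related to Lman1, had 66.5 and 96.1 CPM in resting and 84.5 and 206 CPM in cDC1-like cells. Surf4, a receptor for many soluble cargos, had 54.2 and 77.3 CPM in resting and 57.6 and 169.8 CPM in cDC1-like cells. Mature DC-like cells took part, with Lman1 at 12.9 CPM in WT and 27.8 CPM in cit (log2 1.11, 0.81 to 1.41). In pDC-like cells, none of the 4 was counted as different, and Lman1 stood at 67.3 and 69.6 CPM.

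The p24 proteins are small membrane proteins that cycle between ER and Golgi and carry GPI-anchored and other cargo. They made up 39.8% of the difference in the summed level in cDC1-like cells and 44.4% in resting cells. Tmed2 had 95.8 CPM in WT and 144.6 CPM in cit resting cells and 119.8 and 344.5 CPM in cDC1-like cells (log2 0.59 and 1.52). Tmed10, which forms a complex with Tmed2, had 107 and 176 CPM in resting and 190.3 and 344 CPM in cDC1-like cells. Tmed9 had 99.7 and 143 CPM in resting and 129 and 318 CPM in cDC1-like cells, and Tmed3 had 48.4 and 79.4 CPM and then 67.8 and 179.7 CPM. Tmed2, Tmed3 and Tmed10 were higher in cit in all 7 classes other than the pDC-like class, with the limit given for the proliferating class. Tmed5 stood apart from its family in resting cells, with 102.6 and 103.7 CPM (log2 0.02, -0.09 to 0.12), but was higher in cDC1-like cells, with 88.8 and 124 CPM. In pDC-like cells, Tmed2 was lower in cit, at 246 CPM in WT and 182.5 CPM (log2 -0.43, -0.69 to -0.17), and the other 4 were not counted as different.

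Among the SNAREs, which fuse transport vesicles at the Golgi, Bet1 alone was higher in cit in all 7 classes other than the pDC-like class. The limit given for the proliferating class holds for Bet1 too. Its level was 20.7 CPM in WT and 40.8 CPM in cit resting cells (log2 0.98, 0.77 to 1.19) and 23.9 and 83.5 CPM in cDC1-like cells (log2 1.80, 1.56 to 2.06). Its partners in the same fusion step differed less. Sec22b had 34.9 and 41.7 CPM in resting and 33.4 and 54.2 CPM in cDC1-like cells, and Gosr2 had 52.4 and 56.9 CPM and then 51.4 and 62.6 CPM. Both were counted as higher in intermediate cDC2-like and cDC1-like cells alone.

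KDEL receptors return ER chaperones that reach the Golgi. Kdelr2 had 32.3 CPM in WT and 39.6 CPM in cit resting cells (log2 0.29, 0.11 to 0.47) and 41.9 and 106 CPM in cDC1-like cells (log2 1.35, 1.15 to 1.54). Kdelr1 had 41.3 and 48.7 CPM in resting cells and 42.6 and 67.5 CPM in cDC1-like cells, the only class in which it was counted as higher. Of the KDEL receptor UMIs of cDC1-like cells, Kdelr2 held 49.3% in WT (exact Clopper-Pearson 95% interval 45.1 to 53.5) and 60.2% in cit (57.8 to 62.6). The Kdelr2 share was also higher in cit in intermediate (37.3% and 46.5%), Ccr2+ (37.8% and 47.1%) and mature cells (32.8% and 40.8%). In resting (43.9% and 44.7%), low-ribosomal (46.3% and 47.8%), proliferating (53.9% and 52.7%) and pDC-like cells (46.2% and 47.2%) the intervals of the libraries overlapped. Kdelr3 was near the limit of detection, with 8 UMIs in all WT and 41 in all cit cells. Of these, 3 WT and 26 cit UMIs lay in cDC1-like cells (log2 ratio 2.65, 0.94 to 5.01), and no UMI of Kdelr3 was found in pDC-like cells of either library.

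The COPII coat assembles when Sar1 recruits the inner coat of Sec23 and Sec24, which selects cargo, and then the outer cage of Sec13 and Sec31, on sites set by Sec16. Of its 11 genes, 3 were higher in cit resting cells (8.65% of all genes) and 8 in cit cDC1-like cells (19.8%). Sec24d, a cargo adaptor, had the largest ratio in resting cells, with 64 WT and 579 cit UMIs, or 5.79 and 24.2 CPM (log2 2.06, 1.69 to 2.46). Its WT level in resting cells was under 10 CPM, so it reached the minimum mean through its cit level. The next largest ratio at 10 CPM in these cells was that of Bet1. In intermediate cells Sec24d had 6.72 CPM in WT and 30.9 CPM in cit, and in Ccr2+ cells 7.15 and 28.5 CPM, again with WT under 10 CPM. The same held in low-ribosomal cells, with 8.57 CPM in WT and 42.2 CPM in cit. In cDC1-like cells, where its WT level was higher, it had 31.2 and 103 CPM (log2 1.73, 1.51 to 1.95). In pDC-like cells it had 65.8 and 69.6 CPM (log2 0.08, -0.38 to 0.54).

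In resting and cDC1-like cells the other Sec24 paralogs had smaller ratios than Sec24d, and Sec24b was counted as different in none of the 8 classes. Sec24b had 105.6 CPM in WT and 103.2 CPM in cit resting cells and 81.6 and 75.4 CPM in cDC1-like cells. Sec24a had 38.2 and 40.6 CPM in resting and 37.5 and 58.2 CPM in cDC1-like cells, and Sec24c had 30.1 and 38.6 CPM and then 33.2 and 46.0 CPM. The makeup of the Sec24 pool therefore differed. Sec24d held 17.0% of Sec24 UMIs in WT cDC1-like cells (14.9 to 19.2) and 36.5% in cit (34.7 to 38.4), while Sec24b held 44.5% in WT (41.7 to 47.3) and 26.7% in cit (25 to 28.4). In resting cells the share of Sec24d was 3.22% in WT (2.49 to 4.10) and 11.7% in cit (10.8 to 12.6). In pDC-like cells it was 27.1% and 27.8%, with intervals that overlapped. Shares were compared between libraries and not between paralogs, since transcripts can differ in how well their 3′ ends are captured.

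**Figure D3:**
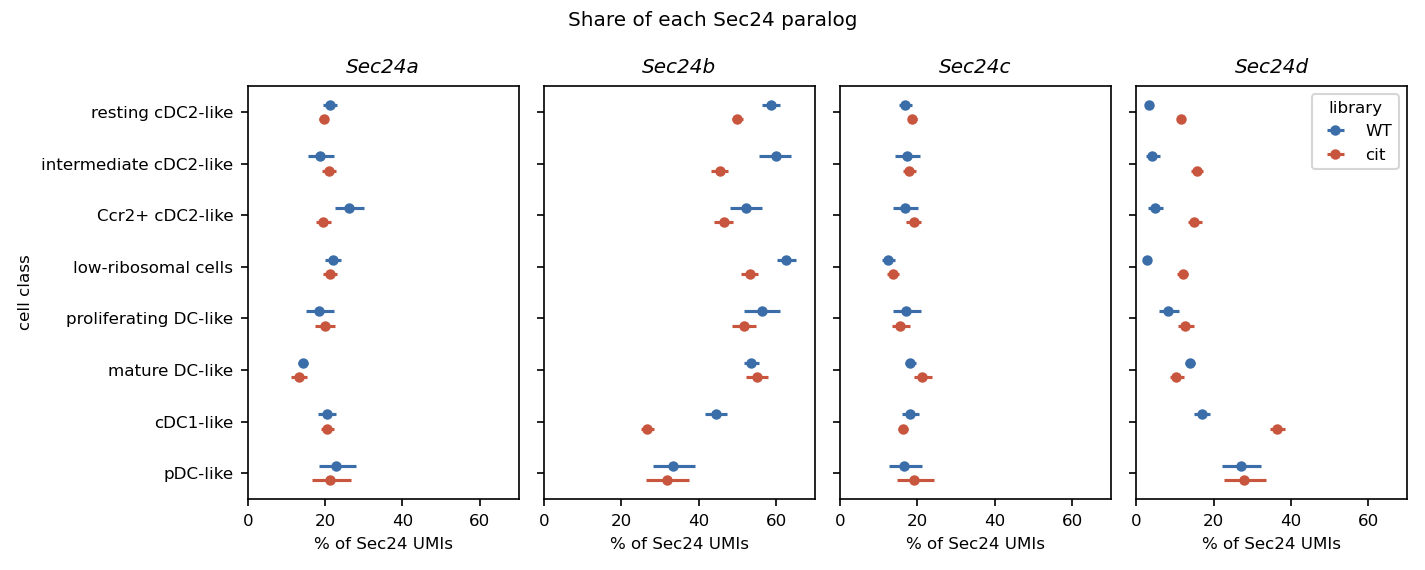
Share of all Sec24 UMIs (horizontal axis, percent) held by each of 4 paralogs (panels) in WT (blue) and cit (red) cells of 8 classes, with exact Clopper-Pearson 95% intervals. The Sec24d share is higher in cit in the cDC2-like, low-ribosomal, proliferating and cDC1-like classes, at up to 36.5%, and lower in cit mature DC-like cells, and the pDC-like points overlap.

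Promoters of members that differed and of a member that did not were set side by side to see whether known ER stress elements set them apart. RefSeq promoters (GRCm38.p6, from 250 bases before to 50 after the start) were found for 29 of the 33 genes. Arcn1, Kdelr2, Tmed2 and Lman1 had none, and all of these but Arcn1 were higher in cit resting cells. The ER stress element (ERSE), which is CCAAT and CCACG at a fixed spacing, searched on both strands, was in 0 of the 29 and in 0.137% of all 27025 genes with a promoter. The XBP1 element TGACGTGG was in 5 of the 29 and in 0.714% of all. These were Sec24d, Copb1, Copb2, Sec23a and Kdelr3, of which Sec24d alone was higher in cit resting cells. In cDC1-like cells Sec24d and Copb2 (log2 0.42) were higher, and Kdelr3 was under 10 CPM in all classes and could not be counted. Of the 11 genes with a promoter that were higher in resting cells, 1 held the element, and of the other 18, 4 did. Kdelr3, which could not be counted, was among those 4. The shorter words CCACG and CCAAT, which are parts of the ER stress element, were in 22 and 11 of the 29 and in 35.5% and 41.1% of all. The word ACGT, which TGACGTGG contains, was in 23 of the 29 and in 33.8% of all. Among the 11 genes higher in resting cells and the other 18, CCACG was in 9 and 13, CCAAT in 6 and 5, and ACGT in 9 and 14. The 27025 genes were not limited to genes found in these cells, so the shares are not matched for expression, nor were they matched for base composition. The sequences run 5′ to 3′ on the strand of the gene and end 16 bases before the RefSeq start, with the element TGACGTGG, read on either strand, in capitals. Sec24d is shown for its ratio and its element, Copb1 for the element without a difference, and Tmed3 and Bet1 for a difference without an exact match. The Tmed3 stretch holds agacgtgg, which differs from the element in its first base, and inexact matches were not searched.
Sec24d (chr3:123267246-123267480, plus strand): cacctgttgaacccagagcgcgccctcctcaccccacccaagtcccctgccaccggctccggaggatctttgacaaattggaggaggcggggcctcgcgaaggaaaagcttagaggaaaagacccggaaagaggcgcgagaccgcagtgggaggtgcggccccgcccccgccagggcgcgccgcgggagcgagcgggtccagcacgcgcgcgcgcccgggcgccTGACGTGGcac
Copb1 (chr7:114254696-114254930, minus strand): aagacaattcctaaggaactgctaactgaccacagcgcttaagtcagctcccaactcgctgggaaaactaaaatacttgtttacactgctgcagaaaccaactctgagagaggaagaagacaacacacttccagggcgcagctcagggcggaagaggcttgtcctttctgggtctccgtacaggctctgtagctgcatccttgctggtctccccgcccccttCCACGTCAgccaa
Tmed3 (chr9:89705059-89705293, minus strand): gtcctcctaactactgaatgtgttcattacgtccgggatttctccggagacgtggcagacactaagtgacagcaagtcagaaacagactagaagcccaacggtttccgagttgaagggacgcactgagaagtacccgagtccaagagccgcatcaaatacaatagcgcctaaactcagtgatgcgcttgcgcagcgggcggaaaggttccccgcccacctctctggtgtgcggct
Bet1 (chr6:4086946-4087180, minus strand): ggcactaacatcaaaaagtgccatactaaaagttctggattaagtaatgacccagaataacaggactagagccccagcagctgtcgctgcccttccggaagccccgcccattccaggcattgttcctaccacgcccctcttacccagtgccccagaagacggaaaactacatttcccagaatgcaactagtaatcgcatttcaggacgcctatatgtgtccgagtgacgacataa
The element of Sec24d lies 26 to 19 bases before its start and that of Copb1 28 to 21 bases before its start on the opposite strand. In GENCODE vM21 the Sec24d gene spans chr3:123267455-123365641 and the Copb1 gene chr7:114215559-114254711. Both genes begin there upstream of the RefSeq start, so each element lies within the span of its gene. Bases just after the RefSeq start were found near the front of a GENCODE transcript for Copb1, Tmed3 and Bet1 but not for Sec24d. The position of the Sec24d element therefore rests on the RefSeq start alone. A match of letters is a description and not a binding site.

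In mature DC-like cells Sec24d was lower in cit, with 403 WT and 128 cit UMIs, or 27.3 and 18.3 CPM (log2 -0.57, -0.87 to -0.28). The cDC1 markers summed to 272 CPM in WT and 91.2 CPM in cit mature cells, with all 10 markers detected in both libraries. When mature cells holding any cDC1 marker UMI were left out, Sec24d had a log2 ratio of 0.52, and without cells whose ribosomal share was under 10% it was 0.51. The direction of Sec24d in mature cells depended on which mature cells were counted. Sec24a, at 27.9 and 23.2 CPM in mature cells (log2 -0.27), had a log2 ratio of 0.07 without the cells under 10% and 0.16 in integrated clusters.

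Of the remaining COPII genes, only Sec23b was counted as higher in resting cells, and 5 were in cDC1-like cells. Sec23b, of the inner coat, had 24.5 and 32.3 CPM in resting and 23.3 and 49.8 CPM in cDC1-like cells, whereas its paralog Sec23a had 14.4 and 16.8 CPM and then 16.3 and 20.4 CPM and was higher in no class. Sec31a had 59.6 and 70.8 CPM in resting cells, just under the 1.2-fold limit, and 62.0 and 103 CPM in cDC1-like cells. Its cage partner Sec13 had 42.4 and 44.2 CPM and then 41.6 and 52.9 CPM. Sec31a was also the only transport gene counted as higher in pDC-like cells, with 61 WT and 76 cit UMIs (log2 0.54, 0.04 to 1.05). This is 1 of 32 transport genes, a share below the 6.33% of all genes that were higher there. Sar1a had 42.8 and 43.8 CPM in resting and 43.2 and 70.8 CPM in cDC1-like cells, and Sar1b had 58.7 and 55.6 CPM and then 47.1 and 55.6 CPM. Sec16a had 38.7 and 42.1 CPM in resting and 36.1 and 55.5 CPM in cDC1-like cells.

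The COPI coat is a complex that Arf1 recruits whole from the cytosol, and its 7 subunit genes had unequal ratios. Cope, the epsilon subunit, was higher in cit in all 7 classes other than the pDC-like class, with the limit given for the proliferating class. Cope had 65.0 CPM in WT and 105 CPM in cit resting cells (log2 0.69, 0.57 to 0.81) and 99 and 232 CPM in cDC1-like cells. Copb1, the beta subunit, was higher in no class, with 78.8 and 76.0 CPM in resting and 70.4 and 79.3 CPM in cDC1-like cells. Copa had 96.1 and 101 CPM in resting and 99.6 and 155 CPM in cDC1-like cells. Copb2 had 59.4 and 64.9 CPM and then 65.6 and 87.5 CPM, and Arcn1, the delta subunit, had 84.9 and 91.5 CPM and then 81.6 and 106 CPM. Copg1 had 29.3 and 32.9 CPM in resting and 32.5 and 45.2 CPM in cDC1-like cells, and Copz1 had 46.4 and 54.5 CPM and then 52.5 and 86.2 CPM. Summed over the coat, cit levels were 1.14-fold those of WT in resting and 1.58-fold in cDC1-like cells, beside 1.49-fold and 2.94-fold for the cargo receptors.

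**Figure D4:**
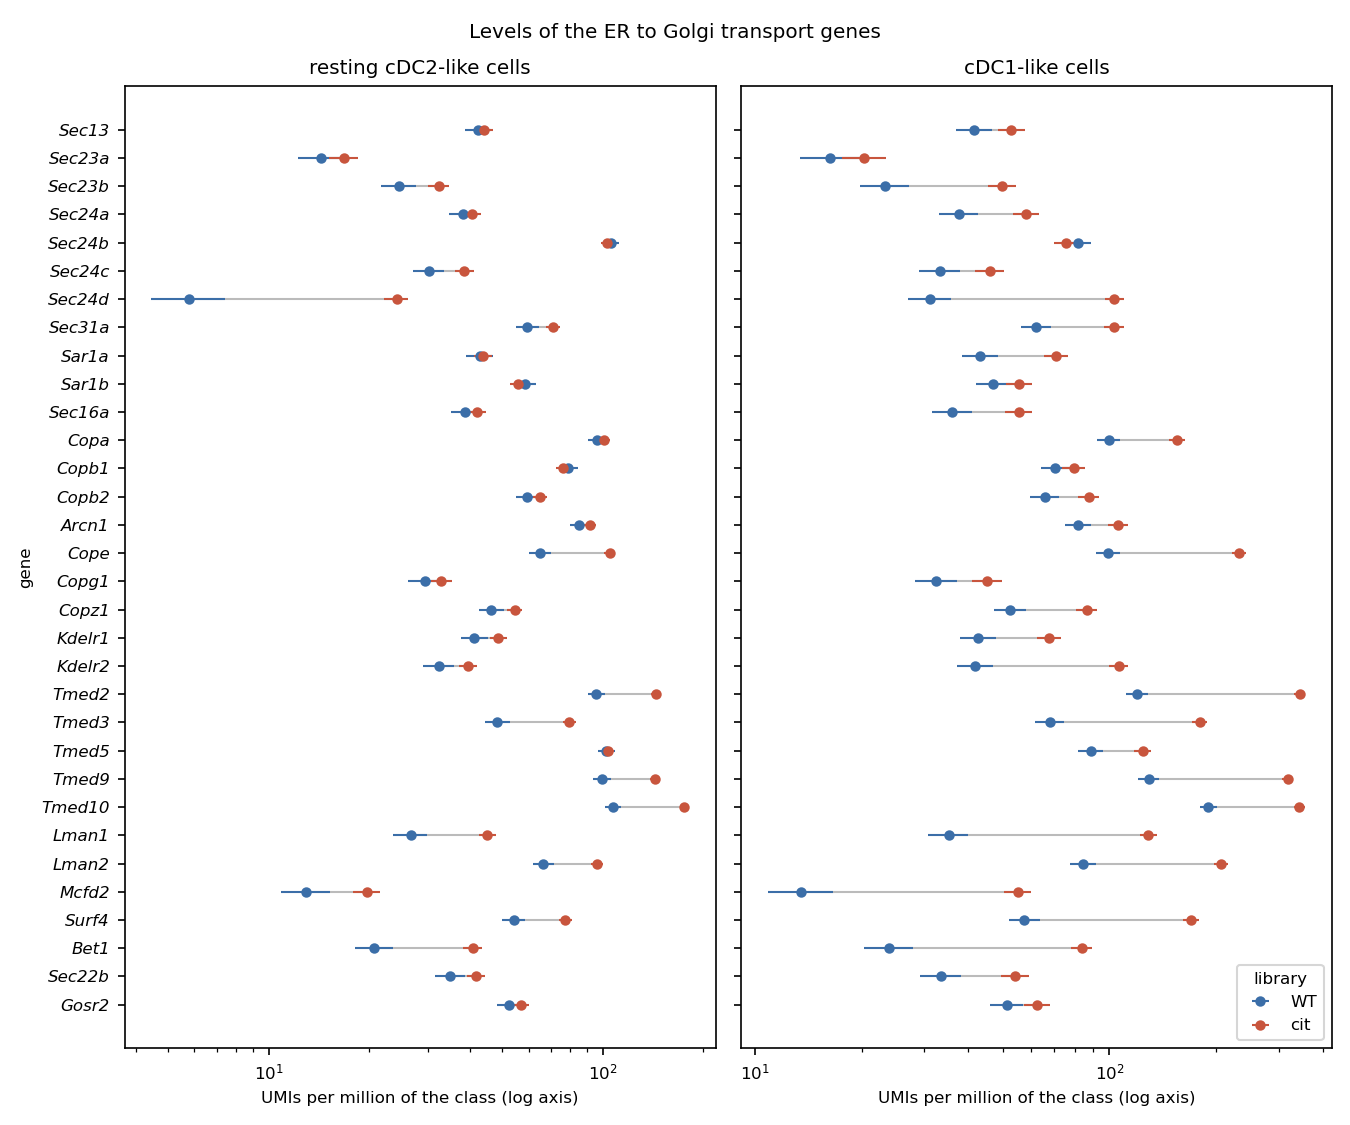
Level of each transport gene other than Kdelr3 in CPM of the class (horizontal log axis) in resting cDC2-like (left) and cDC1-like cells (right), with WT in blue, cit in red and exact Poisson 95% intervals. In resting cells most coat genes have overlapping points and Sec24d has the widest gap, from 5.79 to 24.2 CPM, while in cDC1-like cells nearly all cit points lie to the right of the WT points.

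To see whether the differences followed the state of cDC2-like cells, these cells were split into 6 bins along the log2 ratio of Ccr2+ to resting markers. Ccr2+ markers summed to 5473 CPM in WT and 3968 CPM in cit Ccr2+ cDC2-like cells, and to 2760 and 2385 CPM in intermediate cells. WT and cit cells of a class or bin were therefore not matched in the level of these markers. In WT, the p24 sum was 481 CPM in bin 1, closest to the resting markers, 451 CPM in bin 3 and 623 CPM in bin 5, and in cit it was 588, 670.5 and 931 CPM. In bin 6 it was 609 CPM in WT and 881.5 CPM in cit, below bin 5 in both. The cargo receptor sum in WT lay between 156 and 186 CPM over the 6 bins with no steady order, and in cit it was 207 CPM in bin 1, 294 CPM in bin 5 and 279 CPM in bin 6. The log2 ratio of the cargo receptors was 0.36 (0.12 to 0.60) in the first bin and between 0.59 and 0.81 in the other 5. The COPII sum was 468 CPM in bin 1 and 384 CPM in bin 6 in WT, and 496 and 481.5 CPM in cit. Copb1 had a log2 ratio between -0.12 and 0.23 in the 6 bins. Sec24d had 7 WT and 57 cit UMIs in the first bin (log2 2.02, 0.88 to 3.40), and its ratio lay between 1.69 and 2.37 throughout.

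**Figure D5:**
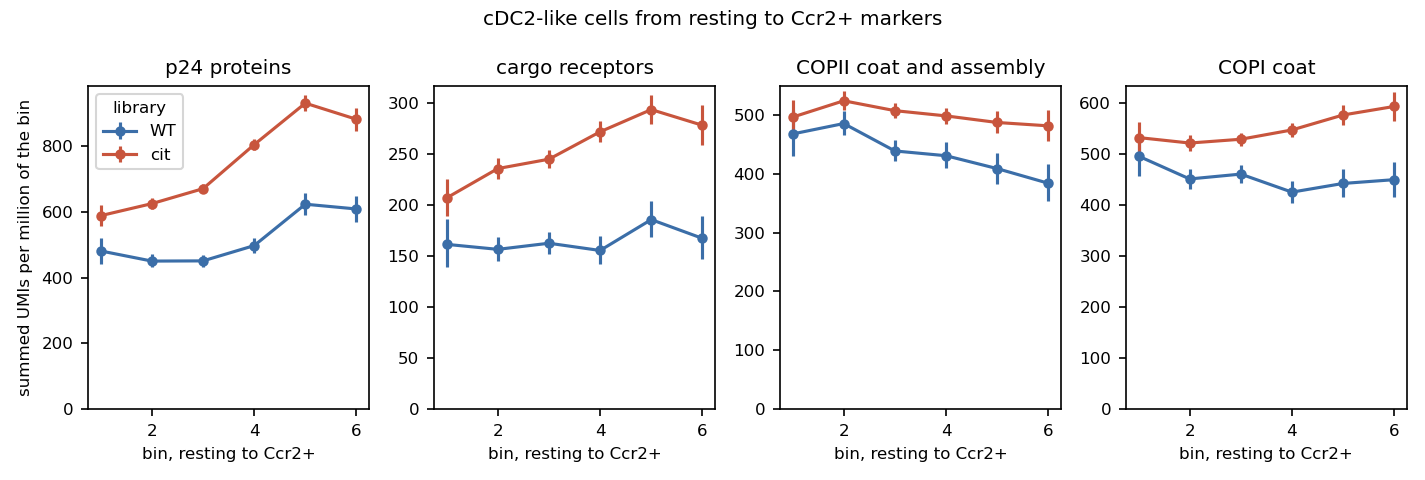
Summed level of p24 proteins, cargo receptors, COPII and COPI genes (vertical axes, CPM of the bin, from 0) in 6 bins of cDC2-like cells ordered from resting to Ccr2+ markers, in WT (blue) and cit (red), with exact Poisson 95% intervals. The cit line lies above the WT line in all panels, with p24 sums from 481 to 623 CPM in WT and from 588 to 931 CPM in cit from bin 1 to bin 5.

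Other genes of the pathway, which include tethers, TRAPP subunits, Arf regulators and Golgi matrix proteins, were counted from a list of 69. In resting cells, 13 of 64 at 10 CPM were higher (8.65% of all genes) and 2 lower (8.45%) in cit, with a median log2 ratio of 0.05. In cDC1-like cells 35 of 63 were higher (19.8%) and 2 lower (21.9%), with a median of 0.35. The 3 largest ratios in resting cells were those of Arfgap3, a GTPase-activating protein for Arf1 (10.9 and 17.0 CPM), Gorasp2, a Golgi stacking protein (41.3 and 62.8 CPM), and Trappc6a, a TRAPP subunit (28.8 and 41.2 CPM). Among the 3 smallest were those of Tmed4, a p24 protein outside the 33 genes (19.3 and 16 CPM), and Nsf, which takes SNARE complexes apart (123 and 108 CPM). In pDC-like cells 3 of 65 were higher (6.33% of all genes) and 2 lower (6.38%).

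Genes of the steps before and after ER to Golgi transport were counted in the same way. Of all genes, 8.65% were higher and 8.45% lower in resting cells, and 19.8% and 21.9% in cDC1-like cells. Of 36 genes of coats and sorting after the Golgi, such as clathrin adaptors, 1 of 35 was higher and 2 lower in cit resting cells (median log2 -0.02). In cit cDC1-like cells 4 of 35 were higher and 7 lower (median -0.04). Of 15 genes of entry into the ER, 12 were higher in resting and 15 in cDC1-like cells (medians 0.51 and 1.21). Of 15 ER folding genes, all were higher in both classes (medians 1.54 and 2.47). In pDC-like cells, 0 of 34 sorting genes, 0 of 15 entry genes and 6 of 15 folding genes were higher, where 6.33% of all genes were.

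Markers of other cell types were summed in the cDC1-like class, where all 10 cDC1 markers were detected in both libraries (5391 CPM in WT and 4358 CPM in cit). Plasma cell markers, of cells that hold much of this machinery, summed to 126 CPM in WT and 260 CPM in cit, with 7 of 10 detected in each and Sdc1 at 0 in both. Their list includes Derl3, an ER stress gene as well, so these sums need not come from plasma cell RNA alone. Macrophage markers summed to 39 and 77 CPM, with all 7 detected, and neutrophil markers to 1.48 and 15.8 CPM, with 4 of 7 detected and Elane at 0 in both. Leaving out cells with a Jchain, Mzb1, Derl3 or Tnfrsf17 UMI kept 680 of 693 WT but 339 of 734 cit cells. With this filter, 26 of the 28 genes stayed higher in cDC1-like cells (19.1% of all genes) and 13 of the 14 in resting cells (7.8%). In intermediate cells 19 of 20 stayed higher (9.0% of all genes) and in Ccr2+ cells 18 of 19 (9.7%). Derl3 is also known as an ER stress gene, so what the filter removed cannot be told apart, and no source of RNA is read from it. An alternative chosen after seeing the data used Igkc in place of Derl3 and kept 670 of 693 WT and 723 of 734 cit cells. All 28 were still higher, though a filter that leaves out so few cells could hardly change this. In resting cells, where plasma cell markers summed to 118 and 135 CPM, it kept 1479 of 1513 WT and 3563 of 3584 cit cells. All 14 were still higher there. The part of macrophage and neutrophil RNA in the result was not tested. T cell markers summed to no more than 6.23 CPM in any of the 8 classes. Without the 31 shared barcodes, the same 28 genes were higher in cDC1-like cells.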

How the data were processed

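Both libraries were 10X Chromium 3′ scRNA-seq, and the deposited values are raw UMI counts per gene and cell that the authors made with Cell Ranger 5.0.1 and mm10, without normalization. The 33 genes, the other lists and the markers were chosen with earlier results of these data known. The gates of the classes were set after seeing the data: at least 6 pDC markers for pDC-like cells, 63 mature marker UMIs per 10000 for mature, 15 per 10000 for cDC1-like and, with at least 3 markers, proliferating cells, a ribosomal share of 8% and, for cDC2-like cells, a log2 ratio of Ccr2+ to resting markers below 0, from 0 to 1, or from 1. Within 20% of the mature gate lay 488 WT and 452 cit cells. No cell was removed as a doublet in the main analysis.

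UMIs were summed per class and library, since cells are not replicates, and scaled to the class total (CPM). Intervals were exact: conditional binomial for ratios, Poisson for levels and Clopper-Pearson for shares, at 95%. All 33 genes and H2-Aa are named, and of the other pathway genes the 3 highest and 3 lowest ratios in resting cells, of which 1 is not reported here. Python 3.11.15 was used for sums (pandas 2.3.3, numpy 2.4.6), intervals (scipy 1.17.1) and plots (matplotlib 3.10.9). Alternatives were other scalings, minimum levels, cell filters, Scrublet scores (scanpy 1.11.5) and integrated clusters (Seurat 5.3.0, sctransform 0.4.2, R 4.3.3) from 3000 features, 30 principal components and a resolution of 0.2. None of the 33 genes was among those features. Of alternatives, 4 were chosen after seeing the data. Gene positions came from GENCODE vM21 and promoters from RefSeq.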

Additional observations from a re-analysis of the deposited data

Results flagged for a closer look

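Members of the list were counted as higher in cit cells of some classes and as lower in others. With 1 library per genotype, these differences between classes were not tested. In pDC-like cells 2 of 32 members were lower, where 6.38% of all genes were. In mature DC-like cells 2 of 31 were lower, where 12.1% of all genes were. Neither share of members was above that of all genes. Tmed2 was lower in pDC-like cells (log2 -0.43) and higher in 7 other classes. Sar1a was lower in pDC-like cells (log2 -0.58) and higher in 3 other classes. Sec24a was lower in mature DC-like cells (log2 -0.27), with an interval that ended at 0, and higher in 3 other classes. Sec24d was lower in mature DC-like cells (log2 -0.57) and higher in 6 other classes, and its sign in mature cells changed without cells holding a cDC1 marker UMI.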

How the results depend on the processing

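Over all alternatives the median log2 ratio of the members lay between 0.61 and 0.79 in cDC1-like, 0.18 and 0.28 in resting, 0.38 and 0.49 in intermediate 0.31 and 0.50 in Ccr2+ cDC2-like, 0.33 and 0.39 in low-ribosomal, 0.01 and 0.25 in proliferating and 0.08 and 0.41 in mature cells, and between -0.10 and 0.07 in pDC-like cells, where its sign changed. The count of members higher in cDC1-like cells lay between 20 and 30, with 0 lower under every alternative run. Of all genes there, 8.2% (limit of 1.5-fold) to 30.9% (mean over cells) were higher. Lower were 7.2% (limit of 1.5-fold) to 25.5% (minimum mean of 50 CPM).

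A minimum mean of 50 CPM, which tests fewer genes, left 7 of 17 members higher in resting (7% of all genes), 12 of 17 in intermediate (10.4%) and 10 of 18 in Ccr2+ cDC2-like cells (11.1%). It left 7 of 12 higher in low-ribosomal (10.9%), 7 of 18 in proliferating (10.2%) and 6 of 11 in mature cells (18.4%). With this minimum, 0 were lower in low-ribosomal (8.5%) and mature cells (15.1%), and the median was 0.41 in mature cells. A limit of 1.5-fold left 8, 13 and 12 higher in the 3 cDC2-like classes (1.9%, 3.3% and 3.4% of all genes), 6 in low-ribosomal (3.1%), 3 in proliferating (3.4%), 8 in mature (5%) and 0 in pDC-like cells (3.9%). With this limit, 0 were lower in low-ribosomal (2.3%), mature (4.3%) and pDC-like cells (3.6%). For the settings that follow, the cause was not tested. Leaving out cells with a Jchain, Mzb1, Derl3 or Tnfrsf17 UMI gave 2 higher (9.9% of all genes) and 1 lower (9.5%) with a median of 0.01 in proliferating cells, 1 lower in intermediate (8.4%) and 0 higher in pDC-like cells (4.5%). Calls by size alone gave 1 lower in intermediate (14.7%), 1 lower in proliferating (16.8%) and 3 higher in pDC-like cells (22.8%), and the mean over cells gave 1 lower (17.9%), 3 lower (21.1%) and 5 higher (24.1%), all shares of members below those of all genes. Without the highest Scrublet scores, 1 was lower in intermediate (9.9% of all genes) and 1 in pDC-like cells (3.8%). Integrated clusters gave 1 lower in proliferating (13% of all genes), 1 lower in mature (14.8%), and 0 higher (4.4%) and 1 lower (4%) in pDC-like cells. Without ribosomal and mitochondrial genes in the total, 0 were lower in low-ribosomal (7.1% of all genes) and 1 in mature cells (10.2%). Without cells under a 10% ribosomal share, 0 were lower in mature cells (9.1% of all genes), and Sec24d there had a log2 ratio of 0.51. Of the alternatives chosen after seeing the data, the Igkc list gave 1 lower in intermediate (9.5% of all genes) and 1 in mature cells (12.2%). Removal of shared barcodes gave 1 lower in mature cells (12.1%), and removal of mature cells with a cDC1 marker UMI 1 lower (10%), with Sec24d at 0.52. The ribosomal share alternative was not run for low-ribosomal cells, and no integrated cluster matched the intermediate class.

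No paired analysis was possible because each genotype had 1 library. The pDC-like class had the fewest UMIs in total of the 8 classes and the fewest cells.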
